A study of Homo sapiens with 54 samples.

Results

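Interferon-stimulated genes (ISGs) were followed in A549 human lung cancer cells that carried either an empty vector, without insert, or a vector that expresses USP18. The set had 44 member genes, found by their symbol in a table of 58870 human genes (33416 with at least 1 count). Of the 44 members, 34 passed the filter on low counts in all 14 fits of vehicle and treated groups, 2 passed it in some fits and 8 in none. The cells received vehicle (DMSO) or 1 of 3 compounds given by the codes CP2 (2 and 5 µM), CP14 (1, 2.5 and 5 µM) and CP18 (1, 2.5 and 5 µM), and RNA was collected at 48 h. Vector and treatment made 18 groups of 3 libraries, 54 libraries in all, labelled E_V for the empty vector and USP18_O_E for the USP18 vector. All groups share the A549 line, and no label names added interferon. The sources used here do not tell which code stands for which compound, whether each vector was carried by a pool of cells or by 1 clone, or whether the replicates sequenced were separate cultures. The methods speak of independent biological replicates for experiments in general but not for these libraries, and p-values measure the spread between the libraries, which may be technical.

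Type I interferons bind the receptor chains IFNAR1 and IFNAR2 and activate the kinases JAK1 and TYK2, which phosphorylate STAT proteins. The complex ISGF3, which holds STAT2 and IRF9, binds the interferon-stimulated response element (ISRE) before the start of many ISGs. The products of these genes sense viral nucleic acid, cleave RNA, block translation or virus entry, or feed back on the pathway. USP18, itself an ISG, removes the ubiquitin-like protein ISG15 from its targets and, apart from this activity, restrains signalling at IFNAR2. The comparisons below ask how ISG transcripts differed between the vectors and how each compound and dose changed them.

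Library totals ran from 16673228 to 25609062 counts with a median of 19701303.5. Within groups, the correlation of each library with the other replicates was between 0.9957 and 0.9979. So near its ceiling, this measure cannot show whether a library stood apart. It was lowest for replicate 3 of 5 µM CP18 (0.9957) and of 5 µM CP2 (0.9959) in empty-vector cells. No pair of replicates agreed within counting noise (the chi-square statistic per gene lay between 1.79 and 10.4 in 54 pairs). USP18 itself was at 8.77 to 12.3 CPM (TMM-scaled counts relative to library size) in empty-vector libraries and at 947 to 2115 CPM in USP18-vector libraries, matching the vector labels. The epithelial keratins KRT8 (1264 to 6322 CPM) and KRT18 (1658 to 5207 CPM) were high in every library, whereas EPCAM was low (1.33 to 14.8 CPM). Among markers of other cells, CD3E was at 0 in every library, DCN reached 3 counts and PTPRC 7 counts at most, CD14 reached 80 counts and COL1A1 was between 3.66 and 14.2 CPM.

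Promoter sequences help to show what the members share beyond their name. RefSeq promoters (GRCh38.p14, 250 bases before to 50 bases after the start) were matched for 37 of the 44 members. IFIT2, IFITM2, IRF7, MX2, OAS2, OASL and TRIM22 had no entry. The core of the ISRE, GAAA, any 2 bases and GAAA again, searched on both strands, was present in 25 of the 37 members (67.6%), as compared with 4.38% of all 27305 genes with promoters of the same length, a gene counting when any of its entries held the motif. The shorter spacing, with 1 base between the repeats, was found in 16 members (43.2%) and in 3.87% of all genes, and at least 1 of the 2 motifs, whose matches may overlap, in 31 members (83.8%) and 7.83% of all genes. TTCNNNGAA, the core of the gamma-activated element, was found in 12 members (32.4%) and in 9.38% of all genes. The 150 bases before the start of members with the largest changes are as follows, 5′ to 3′ on the gene's strand, with either ISRE spacing in capitals on whichever strand it was found.
IFIT1: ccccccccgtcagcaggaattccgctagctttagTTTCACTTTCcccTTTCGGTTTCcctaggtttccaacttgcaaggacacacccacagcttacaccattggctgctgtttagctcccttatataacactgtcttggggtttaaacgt
OAS1: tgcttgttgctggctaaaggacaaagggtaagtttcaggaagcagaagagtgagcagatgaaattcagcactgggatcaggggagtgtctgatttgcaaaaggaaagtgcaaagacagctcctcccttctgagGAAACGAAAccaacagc
MX1: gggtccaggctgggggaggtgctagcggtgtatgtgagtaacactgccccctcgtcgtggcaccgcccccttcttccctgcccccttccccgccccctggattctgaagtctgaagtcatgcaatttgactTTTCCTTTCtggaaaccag
ISG20: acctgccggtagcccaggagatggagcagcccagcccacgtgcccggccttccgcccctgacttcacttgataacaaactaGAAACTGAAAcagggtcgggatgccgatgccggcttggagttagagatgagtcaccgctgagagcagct
IFITM3: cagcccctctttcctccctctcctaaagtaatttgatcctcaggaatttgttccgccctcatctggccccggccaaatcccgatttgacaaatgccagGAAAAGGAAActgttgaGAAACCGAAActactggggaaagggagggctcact
IFIH1: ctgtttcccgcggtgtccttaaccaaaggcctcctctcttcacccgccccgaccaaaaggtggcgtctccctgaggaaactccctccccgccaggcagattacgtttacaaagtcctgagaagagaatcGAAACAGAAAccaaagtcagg
IFI16: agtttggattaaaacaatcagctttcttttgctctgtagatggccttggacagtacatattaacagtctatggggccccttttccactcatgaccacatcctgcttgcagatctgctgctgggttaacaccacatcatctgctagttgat

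The windows lie at chr10:89392473-89392622 (plus strand) for IFIT1, chr12:112906812-112906961 (plus) for OAS1, chr21:41420408-41420557 (plus) for MX1, chr15:88638866-88639015 (plus) for ISG20, chr11:320861-321010 (minus) for IFITM3, chr2:162318685-162318834 (minus) for IFIH1 and chr1:159008841-159008990 (plus) for IFI16. MX1 has 3 entries and IFI16 has 2, of which the first is shown. IFIT1 and IFITM3 each carried 2 matches in the window, OAS1, MX1, ISG20 and IFIH1 carried 1, and the window of IFI16 held none. IFI16 is nevertheless among the 31 members, since matches were counted over the 300 bases of both its entries.

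Not every ISG was measurable in A549 cells without added interferon. RSAD2 (viperin) had at most 2 counts in any library, IFI44L 2, MX2 and XAF1 3, IFI44 6 and BST2 (tetherin) 7. OAS2 reached 14 counts and IFITM1 15, and none of these 8 members passed the filter on low counts in any fit. CMPK2, the neighbour of RSAD2, was tested only with 2.5 µM CP14, where it had a log2 fold change of 1.04 (SE 0.83, adjusted p = 0.365) in USP18 cells. IFI27 was tested only with 1 µM CP14, with an adjusted p of 0.877 in empty-vector and 0.873 in USP18 cells. For 4 measured members, most or all counts were not whole numbers because RSEM divided reads between genes: IFITM2 and IFITM3 (0% of libraries with a whole count), IRF9 (1.85%) and SP100 (24.1%). IFITM2 and IFITM3 are near-identical genes on chromosome 11, with IFITM1 between them. IFITM1 had a whole count in only 18.5% of libraries, so how reads were split among these genes is uncertain. PARP9 and its partner DTX3L overlap on opposite strands of chromosome 3, and whether strand was used in counting is not given in the sources used here.

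With vehicle, USP18 cells differed from empty-vector cells in 22 of the 34 members tested, 16 higher and 6 lower, at an adjusted p under 0.05 in edgeR's quasi-likelihood test. Over all 15252 genes tested, 8792 passed (57.6%), 29.0% higher and 28.7% lower. The members had a median log2 fold change of 0.18, against -0.01 for all genes tested. Only MX1 also passed the study's size threshold of an absolute log2 fold change over 1, which 1543 of all genes (10.1%) reached. Members therefore differed between the vectors about as often as other genes did, with small sizes. DESeq2 passed 17 members, 14 higher and 3 lower.

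Among effectors, MX1, a dynamin-like GTPase that blocks virus replication (chromosome 21, 41420020 to 41470071, GRCh38), was at 0.168, 0.437 and 0.471 CPM in empty-vector and at 0.896, 1.20 and 1.51 CPM in USP18 libraries with vehicle. All 3 USP18 libraries were above all 3 empty-vector libraries, although these values rest on 3 to 11 counts in the empty-vector and 18 to 31 counts in the USP18 libraries. The log2 fold change was 1.68 (SE 0.39, adjusted p = 0.00134). MX1 passed the filter on low counts only through the USP18 libraries, so its entry into the test depended on the group where it was high. It was not tested under the filter of at least 10 counts in every library, and kept its call with no filter. ISG20, an exonuclease that degrades viral RNA (chromosome 15, 88635670 to 88656483), was at 7.26, 9.37 and 9.65 CPM in empty-vector and at 15.7, 17.8 and 18.1 CPM in USP18 libraries. These groups did not overlap either, and the log2 fold change of 0.99 (SE 0.10, adjusted p = 2.14e-07) fell just short of the size threshold. SAMD9 (log2 fold change 0.60) and its paralogue SAMD9L (0.85), which restrict viruses and cell growth, and TRIM21 (0.43), a cytosolic antibody receptor and ubiquitin ligase, were higher too. In the opposite direction, the antiviral protein TRIM22 was at 2.31, 2.47 and 2.58 CPM in empty-vector and at 1.09, 1.20 and 1.46 CPM in USP18 libraries, a log2 fold change of -0.97 (SE 0.23, adjusted p = 0.00158).

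Enzymes that respond to double-stranded RNA were split. OAS1, which makes the 2-5A signal that activates RNase L (chromosome 12, 112905856 to 112933219), was at 46.9, 53.5 and 55.3 CPM in empty-vector and at 39.4, 40.4 and 41.9 CPM in USP18 libraries, lower in every USP18 library (log2 fold change -0.35, SE 0.06, adjusted p = 6.57e-05). ADAR, the RNA-editing deaminase, was lower by a small amount (-0.08, adjusted p = 0.00591), a call lost when library totals alone were used for scaling. OAS3 (-0.04, adjusted p = 0.226) and EIF2AK2, the kinase PKR (0.02, adjusted p = 0.533), did not pass. OASL, an OAS relative without synthetase activity, was higher (0.77, adjusted p = 0.0476), but missed the threshold when any 1 of the 6 libraries was left out (adjusted p from 0.0513 to 0.197).

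Of the 4 IFIT genes, whose proteins bind foreign RNA, IFIT2 (0.70, adjusted p = 0.01) and IFIT5 (0.20, adjusted p = 0.0161) were higher in USP18 cells. Both calls were lost without replicate 3 of empty-vector cells (adjusted p of 0.0611 and 0.0568), that of IFIT2 also without replicate 1 (0.0572) and that of IFIT5 without replicate 2 (0.0553) of USP18 cells. IFIT1, which holds back translation of viral RNA, was at 4.94, 5.08 and 5.27 CPM in empty-vector and at 3.49, 3.83 and 5.03 CPM in USP18 libraries. These groups overlapped, and the log2 fold change of -0.31 (95% confidence interval -0.63 to 0.01, adjusted p = 0.0911) did not pass. The virus entry inhibitors IFITM2 (18.1, 18.5 and 21.0 CPM against 27.9, 28.5 and 30.4 CPM) and IFITM3 (3.02, 3.72 and 3.98 CPM against 4.64, 5.55 and 6.07 CPM) were both higher in all USP18 libraries, with log2 fold changes of 0.60 (adjusted p = 1.14e-06) and 0.61 (adjusted p = 0.00262).

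Of the 4 nucleic acid sensors, 0 were higher and 2 were lower in USP18 cells, next to 29.0% of all genes higher and 28.7% lower. DDX58 (RIG-I) was lower in USP18 cells (-0.30, adjusted p = 0.0174), a call lost without replicate 2 of USP18 cells (adjusted p = 0.0905) and in DESeq2 (0.0692). IFIH1 (MDA5) was at 1.37, 1.39 and 1.51 CPM in empty-vector and at 0.732, 0.896 and 0.956 CPM in USP18 libraries, without overlap (-0.72, adjusted p = 0.0407). Its adjusted p lay between 0.0614 and 0.134 when any 1 library was left out and was 0.105 in DESeq2, which called neither sensor. DDX60 and IFI16 did not pass (adjusted p of 0.389 and 0.329). Among transcription and signalling genes, STAT2, the ISGF3 subunit that recruits co-activators, was at 29.7, 32.4 and 33.8 CPM in empty-vector and at 38.8, 38.9 and 39.3 CPM in USP18 libraries (0.29, SE 0.06, adjusted p = 0.000327). IRF9, its DNA-binding partner, was at 10.4, 11.1 and 11.1 CPM in empty-vector and at 11.1, 11.6 and 11.7 CPM in USP18 libraries, groups that lay close together (0.08, adjusted p = 0.416). NMI (0.57) and its partner IFI35 (0.61), PARP14 (0.29) and PARP9 (0.22) were higher, PARP9 losing its call without replicate 1 or 3 of empty-vector or replicate 1 of USP18 cells (adjusted p up to 0.106). The remaining genes to pass were IFI6, a mitochondrial and endoplasmic reticulum protein that was lower (-0.53, adjusted p = 0.016), and the secreted protein LGALS3BP (0.19, adjusted p = 0.00116). IFI6 missed the threshold without replicate 3 of empty-vector cells (adjusted p = 0.0751) and without replicate 2 (0.0567) or 3 (0.0531) of USP18 cells.

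**Figure D1:**
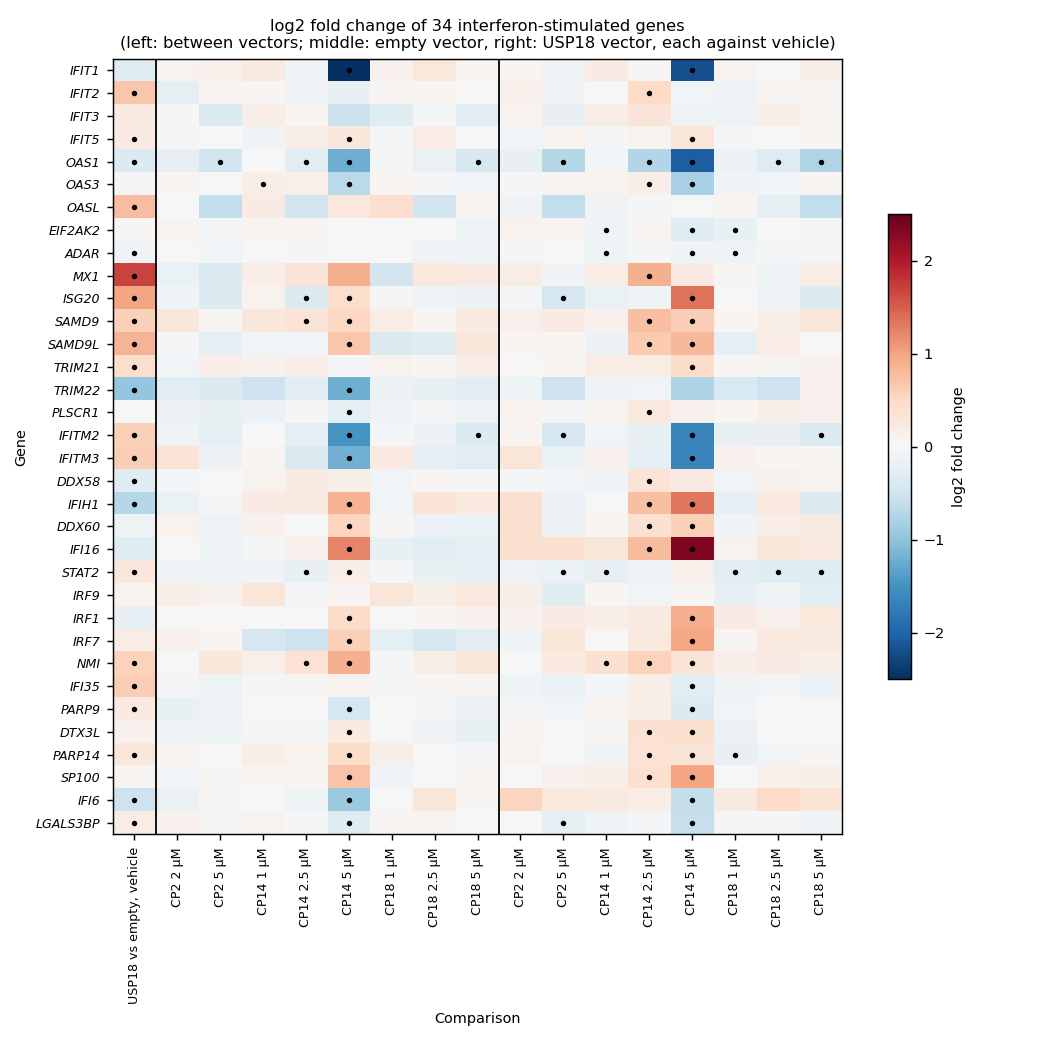
Heat map of the log2 fold change of the 34 members tested in every fit (rows) in the vehicle comparison between vectors (left column) and for each compound and dose against vehicle in empty-vector cells (middle columns) and USP18 cells (right columns), with a dot where the adjusted p was under 0.05 and colours limited to 2.5 in either direction. Dots fill 22 cells in the left column and 24 and 25 cells at 5 µM CP14, and are few with CP2, CP18 and 1 µM CP14.

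Each compound and dose was next compared with vehicle in each vector. All these comparisons within a vector share the same 3 vehicle libraries, so they are not independent of each other. Members that passed were picked by a test on these same libraries. That the compared groups did not overlap, here or above, therefore adds no support, and the share over all genes was not counted. With 2 µM CP2, 0 of the 34 members passed in empty-vector cells (1.84% of all genes did) and 0 in USP18 cells (1.13%) in edgeR. An unadjusted p under 0.05 was reached by 8 and 6 members, and DESeq2 passed 0 of the 18 and 34 members to which it gave an adjusted p. Between the vectors, 0 members differed in their response to 2 µM CP2 (0.0569% of all genes), with 3 at an unadjusted p under 0.05 and 0 of 8 in DESeq2. With 5 µM CP2, 1 member passed in empty-vector cells (12.1% of all genes) and 5 in USP18 cells (19.0%), and all of these fell. In USP18 cells a fit of only the 2 groups compared passed 8 members, 2 higher and 6 lower. OAS1 fell from 46.9 to 55.3 CPM with vehicle to 35.2, 37.9 and 38.6 CPM in empty-vector cells (-0.47, SE 0.06, adjusted p = 7.25e-05). In USP18 cells it fell from 39.4 to 41.9 CPM to 24.0, 24.4 and 26.5 CPM (-0.71, SE 0.07, adjusted p = 4.09e-07), again with every treated library below every vehicle library.

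The other members that fell with 5 µM CP2 in USP18 cells were IFITM2 (19.6, 21.3 and 23.6 CPM with CP2, log2 fold change -0.44, adjusted p = 0.000445), ISG20 (12.2, 12.7 and 13.8 CPM, -0.43, adjusted p = 0.0042), LGALS3BP (-0.23, adjusted p = 0.00167) and STAT2 (34.6, 35.3 and 35.6 CPM, -0.16, adjusted p = 0.0498). For IFITM2 and ISG20 the treated and vehicle libraries did not overlap, and neither call depended on 1 library. When single libraries were left out, STAT2 missed the threshold in 9 of 12 cases, with an adjusted p of up to 0.135. In edgeR, 0 members differed in their response to 5 µM CP2 between the vectors (0.920% of all genes did), with 3 members at an unadjusted p under 0.05 and 0 of 13 passing in DESeq2. IFIT1 (5.24, 5.35 and 6.03 CPM in empty-vector and 3.12, 4.16 and 4.27 CPM in USP18 cells) and MX1 (adjusted p of 0.698 and 0.877) did not pass with 5 µM CP2.

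With 1 µM CP14, few members moved and the changes were small. In empty-vector cells, 1 of 35 members tested passed (0.861% of all genes), the 2-5A synthetase OAS3, which was at 102 to 104 CPM with vehicle and at 115, 116 and 119 CPM with CP14 (0.17, adjusted p = 0.0266). In USP18 cells, 4 members passed (15.3% of all genes). NMI, a protein that binds STATs, rose from 11.9 to 12.9 CPM to 14.7, 16.0 and 18.3 CPM (0.38, adjusted p = 0.0274), whereas STAT2 (31.8, 33.1 and 36.5 CPM, -0.21, adjusted p = 0.0296), EIF2AK2 (-0.10, adjusted p = 0.0398) and ADAR (-0.10, adjusted p = 0.0075) fell. Of these 5 calls, only that of ADAR remained when any 1 library was left out. The adjusted p of OAS3 then reached 0.117, that of NMI 0.15, that of STAT2 0.134 and that of EIF2AK2 0.144. The response differed between the vectors for 1 member (5.79% of all genes), EIF2AK2 (interaction -0.16, adjusted p = 0.0376), which lost this call for 9 of 12 libraries left out (adjusted p up to 0.0987).

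At 2.5 µM CP14 the response itself differed between the vectors in 5 of 35 members (8.00% of all genes). In empty-vector cells, 5 of 35 members passed (15.1% of all genes), 2 higher and 3 lower, with a median log2 fold change over the members of 0.01, and of -0.02 when only the 2 groups compared were fitted. In USP18 cells, 15 of 35 members passed (32.7% of all genes), 14 of them higher, as compared with 16.3% of all genes higher and 16.4% lower. The median over the members there was 0.19, against 0.01 for all genes tested. No member reached an absolute log2 fold change over 1 with an adjusted p under 0.05 in either vector, so these were shifts of moderate size.

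The rises in USP18 cells were found in several roles. MX1 was at 1.90, 2.05 and 2.73 CPM with 2.5 µM CP14, above the 0.896 to 1.51 CPM with vehicle (0.89, SE 0.29, adjusted p = 0.0253). The DNA sensor IFI16 was at 2.05, 2.31 and 2.78 CPM, above the 1.15 to 1.49 CPM with vehicle (0.80, SE 0.22, adjusted p = 0.00806). SAMD9 was at 15.4, 16.5 and 16.8 CPM, above the 8.94 to 10.4 CPM with vehicle (0.75, SE 0.09, adjusted p = 3.35e-06). In each of these 3 genes the treated libraries lay above all vehicle libraries. Without replicate 1 of CP14 in USP18 cells the adjusted p was 0.134 for MX1 and 0.0503 for IFI16, and MX1 was also lost without replicate 1 or 3 of vehicle, whereas SAMD9 kept its call throughout. All 4 sensors rose, the others being IFIH1 (0.75, adjusted p = 0.0283), DDX60 (0.39, adjusted p = 0.0151) and DDX58 (0.35, adjusted p = 0.0131), but each of these calls was lost when 1 of 2 or 3 libraries of USP18 cells was left out (adjusted p up to 0.138, 0.0823 and 0.0794). DESeq2 did not call IFIH1 or DDX60, and IFIH1 was also lost with no filter and when only the 2 groups compared were fitted.

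Signalling genes that rose in USP18 cells at 2.5 µM CP14 and kept their calls when any 1 library was left out were NMI (0.58, adjusted p = 9.71e-05), SP100 of the PML nuclear bodies (0.42, adjusted p = 4.03e-06), the ubiquitin ligase DTX3L (0.39, adjusted p = 2.05e-05) and the ADP-ribosyltransferase PARP14 (0.35, adjusted p = 6.52e-06). SAMD9L (0.65) and the phospholipid scramblase PLSCR1 (0.25) did so as well. IFIT2 (0.49, adjusted p = 0.0401) and OAS3 (0.17, adjusted p = 0.0115) rose as well, with calls that were lost for 5 and 2 of 12 libraries left out (adjusted p up to 0.134 and 0.0779). STAT2 (35.0, 36.8 and 38.0 CPM), IRF9 (10.2, 11.3 and 11.4 CPM) and IFIT1 (3.95, 4.30 and 4.32 CPM) did not pass in these cells. OAS1 went the other way, falling to 21.2, 25.9 and 25.9 CPM (-0.74, SE 0.07, adjusted p = 4.5e-07).

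In empty-vector cells at 2.5 µM CP14, NMI (10.6, 10.7 and 11.3 CPM with CP14, 0.37, adjusted p = 0.0224) and SAMD9 (7.77, 8.20 and 8.39 CPM, 0.34, adjusted p = 0.0277) rose. OAS1 (42.5, 43.5 and 43.9 CPM, -0.26, adjusted p = 0.0134), ISG20 (6.63, 6.83 and 6.94 CPM, -0.36, adjusted p = 0.0347) and STAT2 (25.9, 28.6 and 29.4 CPM, -0.19, adjusted p = 0.0406) fell. The treated libraries of these 5 genes, picked by the test on the same libraries, did not overlap the vehicle libraries. Each call was lost for 2 to 8 of 12 libraries left out, and 0 members passed without replicate 3 of CP14 in empty-vector cells. Of the 5 members whose response differed between the vectors, DTX3L (interaction 0.42, adjusted p = 0.003), SP100 (0.37, adjusted p = 0.00406), PLSCR1 (0.28, adjusted p = 0.0452) and PARP14 (0.26, adjusted p = 0.019) had a higher, and OAS1 (-0.48, adjusted p = 0.00608) a lower, log2 fold change in USP18 than in empty-vector cells. For PLSCR1 and PARP14 this call was lost for 10 and 3 of 12 libraries left out (adjusted p up to 0.138 and 0.0601), and that of PLSCR1 also in DESeq2, with the replicate block and with all 54 libraries in 1 fit. DTX3L was at 23.9, 24.7 and 24.9 CPM in empty-vector cells, within the 23.3 to 26.5 CPM with vehicle, and at 34.4, 35.5 and 35.9 CPM in USP18 cells, above the 26.8 to 27.1 CPM with vehicle. SP100 was at 25.0, 25.4 and 25.5 CPM in empty-vector cells (23.8 to 25.0 CPM with vehicle) and at 33.6, 34.0 and 35.0 CPM in USP18 cells (25.1 to 26.5 CPM with vehicle). For MX1 the difference in response was not significant (0.57, 95% confidence interval -0.53 to 1.66, adjusted p = 0.586).

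**Figure D2:**
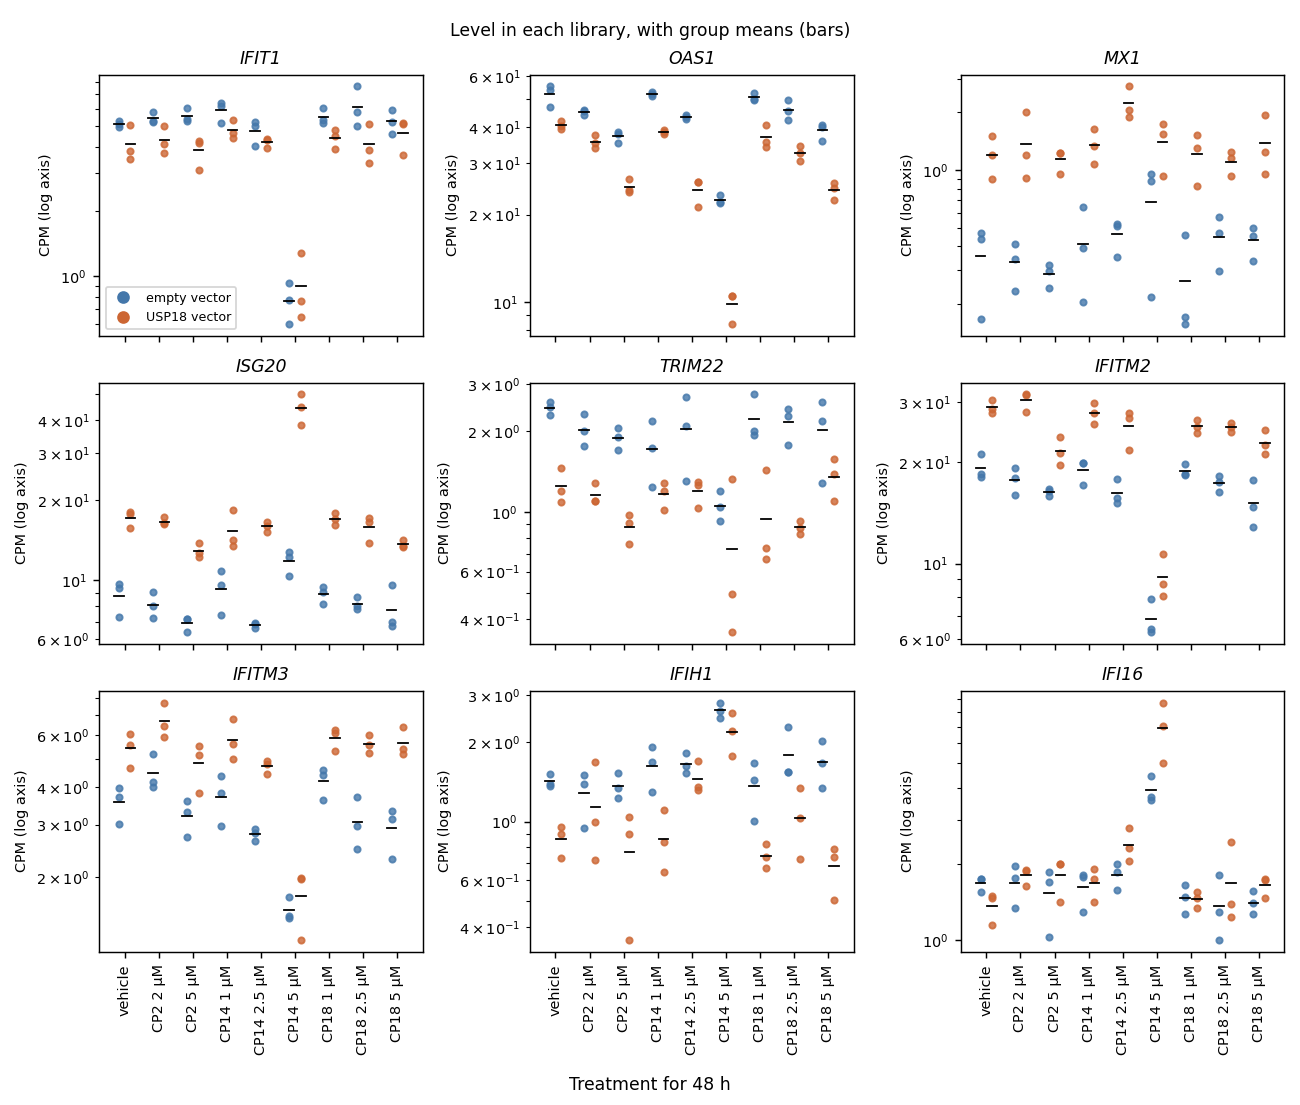
Level (CPM, log axis) of the 9 members that passed an adjusted p of 0.05 and an absolute log2 fold change of 1 in at least 1 comparison with vehicle or between vectors, in each library (points) with the group mean (bars), for empty-vector and USP18 cells by treatment. At 5 µM CP14, IFIT1 lies between 0.60 and 1.28 CPM in all 6 libraries, below the libraries of the other groups, and IFI16 between 3.60 and 8.71 CPM, above them.

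The largest changes in the set came with 5 µM CP14. In empty-vector cells, 24 of 34 members passed, 14 higher and 10 lower, where 63.2% of all genes passed (31.0% higher and 32.1% lower). In USP18 cells, 25 members passed, 14 higher and 11 lower, where 68.6% of all genes passed (34.4% higher and 34.3% lower). The median over the members was 0.13 in empty-vector and 0.12 in USP18 cells, against 0.01 for all genes in both, and that of USP18 cells was -0.06 when no filter on low counts was used. The median of empty-vector cells was 0.04 without replicate 1 of CP14 and 0.08 with all 54 libraries in 1 fit. Past the size threshold were 6 members in empty-vector cells (13.8% of all genes) and 7 in USP18 cells (18.0%). The members thus changed in both directions and about as often as the rest of the genes. USP18 transcript itself was at 1965 to 2115 CPM in the USP18 cells of this group, as compared with 1292 to 1328 CPM with vehicle, and its part in the results was not tested.

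IFIT1 had the largest fall. In empty-vector cells it went from 4.94 to 5.27 CPM with vehicle to 0.60, 0.772 and 0.927 CPM (-2.74, SE 0.24, adjusted p = 2.28e-09). In USP18 cells it went from 3.49 to 5.03 CPM to 0.643, 0.768 and 1.28 CPM (-2.19, SE 0.24, adjusted p = 4.11e-08). The treated libraries were far below the vehicle libraries in both vectors, and the responses did not differ significantly (interaction 0.54, 95% confidence interval -0.21 to 1.3, adjusted p = 0.295). Of the other IFIT genes, IFIT5 rose in both vectors (0.29 and 0.30), and IFIT2 (-0.18 and -0.06) and IFIT3 (-0.54 and -0.09) passed in neither, IFIT3 with an adjusted p of 0.0657 in empty-vector cells.

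OAS1 and OAS3, the 2-5A synthetases that could be tested, both fell. OAS1 went to 21.8, 22.1 and 23.4 CPM in empty-vector cells (-1.21, SE 0.07, adjusted p = 3.08e-12) and to 8.41, 10.5 and 10.5 CPM in USP18 cells (-2.05, SE 0.08, adjusted p = 2.49e-15). OAS3 went from 102 to 104 CPM to 62.8, 64.5 and 68.5 CPM with the empty vector (-0.67), and from 99.1 to 102 CPM to 55.0, 56.9 and 60.7 CPM in USP18 cells (-0.81). The fall of OAS1 was larger in USP18 cells (interaction -0.84, SE 0.11, adjusted p = 6.82e-06). EIF2AK2 (-0.31) and ADAR (-0.11) fell in USP18 cells, and the ADAR call was lost when library totals alone were used for scaling.

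Both IFITM genes fell as well. IFITM2 went to 6.30, 6.43 and 7.89 CPM in empty-vector cells (-1.48, SE 0.11, adjusted p = 1.06e-10) and to 8.02, 8.70 and 10.7 CPM in USP18 cells (-1.67, SE 0.10, adjusted p = 2.57e-12). IFITM3 went to 1.45, 1.47 and 1.71 CPM (-1.20, adjusted p = 3.54e-05) and to 1.23, 1.97 and 1.98 CPM (-1.65, adjusted p = 1.65e-07). With vehicle, every library had been above these values for both genes. TRIM22 fell in empty-vector cells to 0.927, 1.05 and 1.20 CPM (-1.21, SE 0.32, adjusted p = 0.00223), and IFI6 (-0.92 and -0.59), LGALS3BP (-0.30 and -0.58) and PARP9 (-0.44 and -0.35) fell in both vectors. The IFI6 call in USP18 cells was lost without replicate 1 of vehicle or replicate 3 of CP14 (adjusted p up to 0.106).

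Against these falls, IFI16 rose from 1.55 to 1.75 CPM to 3.60, 3.70 and 4.47 CPM with empty vector (1.21, SE 0.21, adjusted p = 3.94e-05), and from 1.15 to 1.49 CPM to 5.01, 7.01 and 8.71 CPM in USP18 cells (2.33, SE 0.21, adjusted p = 2.14e-09). ISG20 rose to 10.4, 12.2 and 12.8 CPM in empty-vector cells (0.44, adjusted p = 0.00391) and to 38.4, 44.6 and 49.9 CPM in USP18 cells (1.36, SE 0.10, adjusted p = 6.95e-11). IFIH1 rose to 2.45, 2.62 and 2.81 CPM (0.88, adjusted p = 0.00182) and to 1.77, 2.20 and 2.57 CPM (1.33, adjusted p = 6.13e-05). All treated libraries of these 3 genes were above their vehicle libraries. The transcription factors IRF1 (0.47 and 0.92) and IRF7 (0.61 and 0.96), SP100 (0.72 and 0.99), PARP14 (0.46 and 0.33), DTX3L (0.23 and 0.40), NMI (0.88 and 0.33), SAMD9 (0.51 and 0.61), SAMD9L (0.69 and 0.81) and DDX60 (0.54 and 0.60) rose in both vectors, the first value being that of empty-vector cells. In NMI, the libraries with CP14 were at 15.0, 15.3 and 16.5 CPM in empty-vector and at 13.5, 16.3 and 17.6 CPM in USP18 cells.

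STAT2 and IRF9 moved little at 5 µM CP14. STAT2 rose to 35.0, 36.2 and 36.9 CPM in empty-vector cells (0.17, adjusted p = 0.0227), a call lost without replicate 3 of vehicle (adjusted p = 0.142) or replicate 2 of CP14, and was at 40.2, 41.7 and 47.0 CPM in USP18 cells, where it did not pass. IRF9 was at 11.0, 11.1 and 11.6 CPM and at 10.4, 12.1 and 13.0 CPM and did not pass. MX1 was at 0.218, 0.883 and 0.949 CPM in empty-vector cells, 1 library lying apart from the other 2, and its log2 fold change of 0.88 did not pass (95% confidence interval -0.16 to 1.92, adjusted p = 0.133). In USP18 cells MX1 was at 0.933, 1.54 and 1.73 CPM, close to vehicle (0.21, adjusted p = 0.641).

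The response to 5 µM CP14 differed between the vectors in 10 of 34 members, 6 upward and 4 downward, where 27.7% of all genes differed. IFI16 (interaction 1.11, SE 0.30, adjusted p = 0.00865) and ISG20 (0.92, SE 0.16, adjusted p = 0.000164) rose more in USP18 cells. The same direction was seen for TRIM21 (0.50), IRF1 (0.45), PLSCR1 (0.35) and SP100 (0.27). OAS1 (-0.84), NMI (-0.55), IFI35 (-0.35) and EIF2AK2 (-0.31) had a lower log2 fold change in USP18 cells. PLSCR1 fell in empty-vector cells (-0.24, adjusted p = 0.00195) and did not pass in USP18 cells. The calls of SP100 and IFI35 were lost for 6 and 7 of 12 libraries left out, with adjusted p up to 0.0701 and 0.129.

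**Figure D3:**
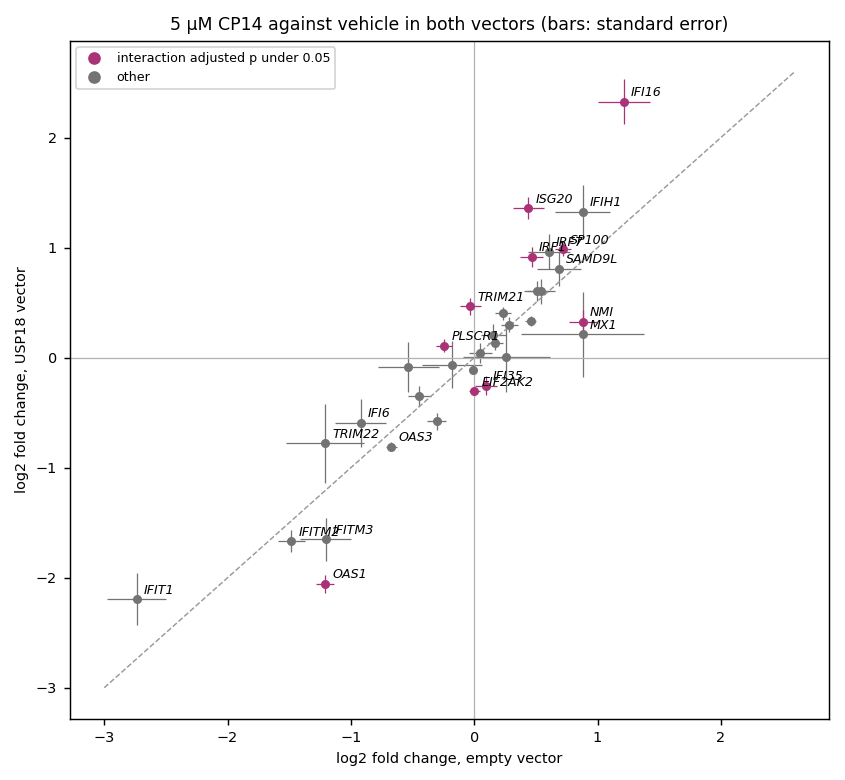
Response to 5 µM CP14 as log2 fold change against vehicle, in empty-vector cells (x axis) and USP18 cells (y axis) for 34 members, with standard errors as bars, the line of equal change dashed, and the 10 members with a significant difference in response coloured. IFI16 (1.21 and 2.33), ISG20 (0.44 and 1.36) and OAS1 (-1.21 and -2.05) lie away from the line, and IFIT1 (-2.74 and -2.19) has the lowest value on both axes.

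CP18 changed few members, and those that passed in the fits of 12 libraries fell. At 1 µM, 0 of 34 members passed in empty-vector cells in edgeR (0.368% of all genes), 2 at an unadjusted p under 0.05, and 0 of the 6 with an adjusted p in DESeq2. In USP18 cells 4 members passed (15.7% of all genes): STAT2 (32.2, 32.8 and 33.0 CPM, -0.25, adjusted p = 0.00261), EIF2AK2 (102, 114 and 118 CPM, -0.19, adjusted p = 0.00385), PARP14 (45.6, 49.7 and 50.1 CPM, -0.19, adjusted p = 0.0142) and ADAR (-0.10, adjusted p = 0.0123). In all 4 the treated libraries were below the vehicle libraries, and the calls of PARP14 and ADAR were lost without replicate 3 of CP18 in USP18 cells (adjusted p of 0.0872 and 0.0536), that of PARP14 also without replicate 1 of vehicle. The response differed between the vectors for 3 members (7.19% of all genes). These were PARP14 (-0.34, adjusted p = 0.00879), EIF2AK2 (-0.20, adjusted p = 0.0457) and IRF9 (-0.51, adjusted p = 0.0253). IRF9 was at 12.7, 12.8 and 14.5 CPM in empty-vector and at 8.40, 10.5 and 10.7 CPM in USP18 cells, above the 10.4 to 11.1 CPM and below the 11.1 to 11.7 CPM with vehicle. The IRF9 and EIF2AK2 differences were lost for 4 and 10 of 12 libraries left out (adjusted p up to 0.0807 and 0.1).

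At 2.5 µM CP18, 0 of 34 members passed in empty-vector cells in edgeR (5.96% of all genes), 4 at an unadjusted p under 0.05, and 1 of 19 in DESeq2. In USP18 cells 2 members passed (14.2% of all genes), OAS1 (30.6, 32.5 and 34.5 CPM, -0.32, adjusted p = 0.00276) and STAT2 (27.9, 31.0 and 35.8 CPM, -0.31, adjusted p = 0.00453). At 5 µM CP18, 2 members passed in empty-vector cells (8.40% of all genes), OAS1 (36.0, 40.2 and 40.8 CPM, -0.41, adjusted p = 0.00146) and IFITM2 (12.8, 14.7 and 17.7 CPM, -0.34, adjusted p = 0.0493). This IFITM2 call was lost for 11 of 12 libraries left out (adjusted p up to 0.206). In USP18 cells 3 members passed (10.7% of all genes), OAS1 (22.4, 24.6 and 25.7 CPM, -0.76, SE 0.07, adjusted p = 1.14e-06), IFITM2 (21.0, 22.4 and 24.9 CPM, -0.36, adjusted p = 0.018) and STAT2 (30.1, 30.4 and 34.5 CPM, -0.31, adjusted p = 0.00511), IFITM2 losing its call for 4 of 12 libraries left out (adjusted p up to 0.0947). A fit of only the 2 groups, and 1 fit of all 54 libraries, each passed 6 members here, 2 of them higher. STAT2 was below all vehicle libraries of USP18 cells at each CP18 dose. In edgeR the response differed between the vectors for 0 members at 2.5 µM (0.197% of all genes) and 0 at 5 µM (0.268%), with 2 and 4 members at an unadjusted p under 0.05 and 0 of 4 and 0 of 20 passing in DESeq2. IFIT1 with 5 µM CP18 was at 4.57, 5.21 and 5.92 CPM in empty-vector and at 3.64, 5.09 and 5.16 CPM in USP18 cells, overlapping the vehicle libraries, and MX1 did not pass at any CP18 dose.

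OAS1 was the one member to pass at the highest dose of all 3 compounds in both vectors. Its mean with vehicle was 51.9 CPM in empty-vector and 40.6 CPM in USP18 cells. With CP2 it was 45.2 and 35.6 CPM at 2 µM and 37.2 and 24.9 CPM at 5 µM. With CP14 it was 52.1 and 38.5 CPM at 1 µM, 43.3 and 24.3 CPM at 2.5 µM, and 22.4 and 9.81 CPM at 5 µM. With CP18 it was 50.8 and 36.9 CPM at 1 µM, 45.9 and 32.5 CPM at 2.5 µM, and 39.0 and 24.2 CPM at 5 µM. The mean was thus lower at each higher dose of each compound in both vectors, with 1 µM CP14 in empty-vector cells at the level of vehicle. At 5 µM the fall was larger in USP18 cells with CP14, whereas for CP2 (interaction -0.24, 95% confidence interval -0.43 to -0.05, adjusted p = 0.275) and CP18 (-0.35, 95% confidence interval -0.56 to -0.14, adjusted p = 0.216) the difference did not pass after adjustment over all genes.

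**Figure D4:**
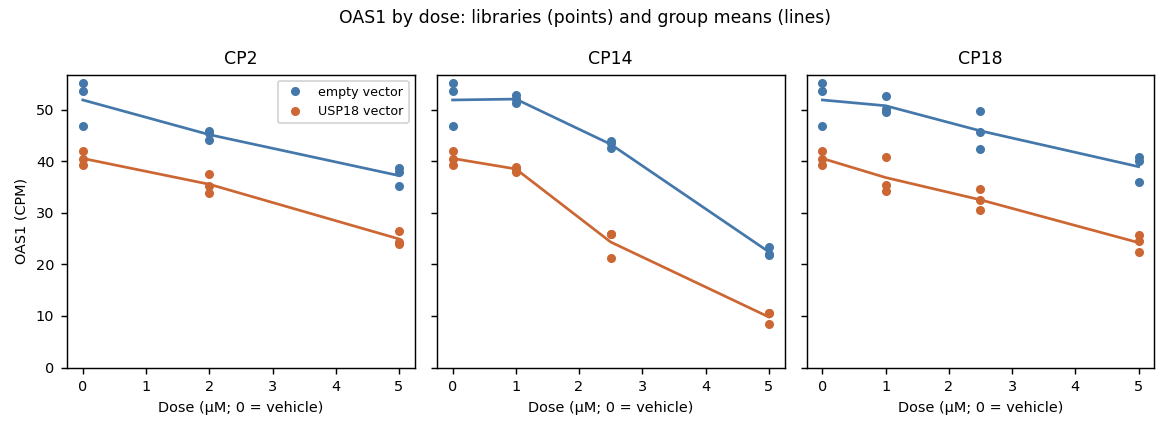
OAS1 level (CPM) by dose (µM, 0 being vehicle) for CP2, CP14 and CP18, with each library as a point and group means joined by lines, in empty-vector and USP18 cells. The means fall to 22.4 and 9.81 CPM at 5 µM CP14 and lie between 24.2 and 39.0 CPM at 5 µM of CP2 and CP18.

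Compounds were compared directly at matched doses in each vector, 10 comparisons in all, with p-values adjusted over all genes and all 10 together. No structure is given for the codes in the sources used here. Between CP14 and CP18 at 1 µM, 0 members differed in empty-vector cells in edgeR (2.13% of all genes), 2 at an unadjusted p under 0.05 and 0 in DESeq2, and 1 in USP18 cells (3.52%), OAS3. At 2.5 µM, 2 members differed in empty-vector cells (7.93% of all genes), OAS3 (0.15) and SAMD9 (0.29). When each of these 3 comparisons was adjusted alone, 0 members passed. In USP18 cells 11 members differed at 2.5 µM (28.0% of all genes), 10 of them higher with CP14, including MX1 (1.00, SE 0.27, adjusted p = 0.00849, and 0.0609 without replicate 1 of CP14), SAMD9 (0.60, adjusted p = 3.23e-05), PARP14 (0.42, adjusted p = 4.04e-06) and DTX3L (0.38, adjusted p = 7.26e-06), while OAS1 was lower with CP14 (-0.41, adjusted p = 0.000298).

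At 5 µM, CP14 differed from CP18 in 18 members in empty-vector cells (52.7% of all genes) and 24 in USP18 cells (59.7%), and CP2 from CP14 in 22 (54.1%) and 24 members (62.3%). The log2 difference of IFIT1 between CP14 and CP18 was -2.77 (95% confidence interval -3.32 to -2.23) in empty-vector and -2.35 (-2.87 to -1.83) in USP18 cells, and that between CP2 and CP14 was 2.86 (2.36 to 3.36) and 2.11 (1.62 to 2.6). For CP14 against CP18, the log2 difference was -0.80 and -1.29 for OAS1 and 1.47 and 2.08 for IFI16. CP2 and CP18 at 5 µM differed in 0 members in empty-vector cells in edgeR (1.42% of all genes), 2 at an unadjusted p under 0.05 and 0 in DESeq2. In USP18 cells they differed in 1 member (1.39% of all genes), the helicase DDX60 (-0.37, adjusted p = 0.0268), which did not pass when this comparison was adjusted alone. The difference between CP2 and CP18 was -0.06 for OAS1 in empty-vector cells (95% confidence interval -0.21 to 0.08) and 0.04 in USP18 cells (-0.11 to 0.20), and for IFIT1 it was 0.09 (-0.26 to 0.43) and -0.26 (-0.62 to 0.09).

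The interferon pathway outside the set was read from a list of 32 genes. Transcripts of most interferon genes on this list, which holds no IFNA gene and not IFNW1, were scarce. IFNB1, IFNG and IFNK had 0 counts in every library and IFNL1, IFNL2 and IFNL3 at most 1, as had the sensor ZBP1. Among the interferon genes listed, the epithelial interferon IFNE was the exception, with 6 to 95 counts per library. Between the vectors with vehicle, 18 of the 23 pathway genes tested passed, 13 higher and 5 lower in USP18 cells, next to 57.6% of all genes. Among the genes that were lower were IFNGR1 (-0.88), a chain of the interferon gamma receptor, JAK1 (-0.62), IFNE (-0.92) and the adaptor MAVS (-0.28). IFNE had 19 to 22 counts in the empty-vector and 6 to 14 counts in the USP18 libraries with vehicle (adjusted p = 0.0429 in edgeR). It passed the filter on low counts only through the empty-vector libraries, where it was higher. Results of pathway genes were not checked with the alternatives or with single libraries left out. Receptor genes that were higher were IFNLR1 (1.5), IFNGR2 (1.00), IL10RB (0.36), IFNAR2 (0.35) and IFNAR1 (0.13). The DNA sensor CGAS (1.33), the adaptor TICAM1 (0.62), the kinases TBK1 (0.43) and IKBKE (0.36), the inhibitors PTPN6 (0.50), PIAS1 (0.25) and SOCS3 (0.23) and STAT3 (0.11) were higher as well.

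With 5 µM CP14, 14 of 24 pathway genes passed in empty-vector cells, 5 higher and 9 lower, next to 63.2% of all genes, and 19 in USP18 cells, 9 higher and 10 lower, next to 68.6%. IFNE rose from a mean of 1.00 CPM (SD 0.203) to 2.94 CPM (SD 0.371) with empty vector (1.56, adjusted p = 1.43e-05), and from 0.518 CPM (SD 0.198) to 4.02 CPM (SD 0.608) in USP18 cells (2.93, adjusted p = 3.89e-09), with n = 3 in each group, in the fit across all genes by edgeR. The feedback inhibitor SOCS3 rose in both vectors (0.94 and 1.15) and PIAS1 fell (-0.74 and -0.81).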

How the data were processed

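The authors deposited expected counts per gene, estimated by RSEM, for 54 libraries of A549 cells, without scaling between libraries, and 94.0% of the values were whole numbers. The submitters' processing notes name Cutadapt 1.18, STAR 2.7.0f, RSEM 1.3.1 and hg38. The labels describe poly(A) capture and the methods removal of ribosomal RNA, and the methods name a mouse annotation for RSEM although the identifiers are human. Counts were rounded and tested by edgeR 4.0.16 in R 4.3.3, with TMM scaling, a filter (filterByExpr, minimum count 10, minimum total 15) and its quasi-likelihood test, whose p-values were adjusted by Benjamini-Hochberg over all genes. The vehicle comparison used 6 libraries, and each compound and dose or compound pair 12, both vectors together. Passing meant an adjusted p under 0.05, and the study's size threshold an absolute log2 fold change over 1. CPM were TMM-scaled. Gene coordinates came from GENCODE v44. The members and lists were chosen with earlier results of these data known. By rule, values per library are given for members called between the vectors, up to 3 of the largest rises, falls and interactions per comparison among members passing, and STAT2, IRF9, IFIT1, OAS1 and MX1, and others were added after their values were seen. Alternatives were RLE factors, library totals alone, 2 other filters, DESeq2 1.42.0, a replicate block, only the compared groups, all 54 libraries in 1 fit, leaving out each library, and, chosen after seeing the data, adjustment within each compound pair. The comparison with parental cells was not analysed here. The result for 1 pathway gene is not reported here.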

Additional observations from a re-analysis of the deposited data

Results flagged for a closer look

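The following members changed by a different amount in USP18 than in empty-vector cells, by the interaction test of edgeR at an adjusted p under 0.05, each value being the log2 fold change in USP18 cells minus that in empty-vector cells. With 1 µM CP14 the difference was -0.16 for EIF2AK2 (adjusted p = 0.0376). With 2.5 µM CP14 it was 0.42 for DTX3L, 0.37 for SP100, 0.28 for PLSCR1, 0.26 for PARP14 and -0.48 for OAS1 (adjusted p from 0.003 to 0.0452). With 5 µM CP14 it was 1.11 for IFI16, 0.92 for ISG20, 0.50 for TRIM21, 0.45 for IRF1, 0.35 for PLSCR1, 0.27 for SP100, -0.31 for EIF2AK2, -0.35 for IFI35, -0.55 for NMI and -0.84 for OAS1 (adjusted p from 6.82e-06 to 0.0397). With 1 µM CP18 it was -0.20 for EIF2AK2, -0.34 for PARP14 and -0.51 for IRF9 (adjusted p from 0.00879 to 0.0457). OAS1, SP100, PLSCR1, EIF2AK2 and PARP14 appear at more than 1 dose or compound, PARP14 with opposite signs (0.26 with 2.5 µM CP14 and -0.34 with 1 µM CP18), and these comparisons share the vehicle libraries. Leaving out single libraries ended the call of PLSCR1 with 2.5 µM CP14 in 10 of 12 cases and that of EIF2AK2 with 1 µM CP14 and 1 µM CP18 in 9 and 10 of 12 cases, and 1 fit of all 54 libraries ended all 3 calls. That fit passed 1 member for the interaction with 1 µM CP18, as compared with 3 in the main fit. Single libraries left out also ended calls of PARP14 with 2.5 µM CP14 (3 of 12 cases), SP100 and IFI35 with 5 µM CP14 (6 and 7) and IRF9 with 1 µM CP18 (4). At 5 µM CP14 the USP18 transcript was also higher in USP18 cells (1965 to 2115 CPM) than with vehicle (1292 to 1328 CPM), and its part in these differences was not tested.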

How the results depend on the processing

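Of 235 member results past the threshold, RLE factors kept 234, library totals alone 229, no filter 221, the replicate block 228 and 1 fit of all 54 libraries 221. DESeq2 kept 214 of the 234 it tested, a filter of at least 10 counts in every library 227 of 229, and a fit of only the groups compared 185 of 194, and none of these alternatives reversed a result. The cause of the changes below was not tested.

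Counts of members passing that moved by over 1.5 times were as follows. With no filter, 2 µM CP2 gave 1 member in each vector, 5 µM CP2 gave 2 in empty-vector cells and 1 for the interaction, 2.5 µM CP18 gave 1 in empty-vector cells, the interaction of 1 µM CP14 gave 2, CP14 against CP18 gave 1 at 1 µM and 1 at 2.5 µM in empty-vector cells, and CP2 against CP18 gave 0 in USP18 cells. With at least 10 counts in every library, 2 µM CP2 gave 1 in empty-vector cells, the interaction of 1 µM CP14 gave 2, and CP14 against CP18 at 2.5 µM in empty-vector cells gave 1. The interaction of 1 µM CP14 gave 2 with RLE factors and 2 with library totals alone. DESeq2 gave 3 for that interaction, 3 for 2.5 µM CP14, 1 for 2.5 µM CP18 and 4 for 5 µM CP18 in empty-vector cells, 1 for CP14 against CP18 at 2.5 µM in empty-vector cells, and 0 for CP2 against CP18 in USP18 cells. A fit of only the groups compared gave 8 for 5 µM CP2 and 6 for 5 µM CP18 in USP18 cells, 2 of them higher in each, 1 for 5 µM CP18 in empty-vector cells, 1 for CP14 against CP18 at 1 µM and 1 at 2.5 µM in empty-vector cells, and 3 for CP2 against CP18 in USP18 cells. With all 54 libraries in 1 fit, empty-vector cells gave 2 for 5 µM CP2, 0 for 1 µM CP14, 3 for 2.5 µM CP14, 1 for 2.5 µM CP18 (higher), 4 for 5 µM CP18 and 1 for CP14 against CP18 at 2.5 µM, USP18 cells gave 2 for 1 µM CP14 and 6 for 5 µM CP18 (2 higher), and the interaction gave 0 for 1 µM CP14 and 1 for 1 µM CP18. Adjustment within each compound pair, chosen after seeing the data, gave 0 for CP14 against CP18 at 1 µM in USP18 cells and at 2.5 µM in empty-vector cells and 0 for CP2 against CP18 in USP18 cells.

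Leaving out single libraries gave 17 to 20 members for the vehicle comparison, 0 to 1 for 2 µM CP2 and 1 to 3 for 5 µM CP2 in empty-vector cells. For 1 µM CP14 it gave 0 to 1 in empty-vector and 1 to 4 in USP18 cells and 0 to 3 for the interaction, for 2.5 µM CP14 0 to 7 in empty-vector and 11 to 16 in USP18 cells and 3 to 5 for the interaction, and for 5 µM CP14 23 to 25, 24 to 26 and 8 to 11. For 1 µM CP18 it gave 2 to 6 in USP18 cells and 1 to 5 for the interaction, for 2.5 µM CP18 0 to 1 in empty-vector cells, and for 5 µM CP18 1 to 4 in empty-vector and 2 to 6 in USP18 cells. CP14 against CP18 gave 0 to 1 in empty-vector and 1 to 2 in USP18 cells at 1 µM and 0 to 2 in empty-vector cells at 2.5 µM, and CP2 against CP18 gave 0 to 1 and 0 to 2.

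The replicate numbers showed no pairing by a rule that asked for it in all 3 replicates, which cannot exclude a batch shared by some libraries. Between 5 µM CP2 and 5 µM CP18 in empty-vector cells, the correlation of deviations was 0.245 for replicate 3, and 0.06 and 0.0672 for replicates 1 and 2. In 0 of 27 comparisons were all 3 correlations of deviations over 0.1, and the mean correlation was 5e-04 for the same number and -2e-04 for different numbers. The replicate block gave 2 members for the interaction of 1 µM CP14, 1 for 5 µM CP18 in empty-vector cells and 1 for CP14 against CP18 at 2.5 µM in empty-vector cells, and OASL and IFIH1 lost their calls between the vectors. The median over the members with 5 µM CP14 in USP18 cells was -0.06 with no filter and between 0.08 and 0.18 with the other alternatives, and in empty-vector cells it ran from 0.04 to 0.17, while with 2.5 µM CP14 in empty-vector cells it ran from -0.02 to 0.03. Between the vectors, DESeq2 lost DDX58, IFIH1, IFI6, OASL and PARP9. Members at a few counts, such as MX1, limit what these depths resolve.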
